A study of Mus musculus with 12 samples.

Results

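Myc and its neighbour Pvt1 lie side by side on mouse chromosome 15, and intervals of RNA-DNA hybrids were described here for these 2 genes, of 49943 RefSeq genes on chromosomes 1 to 19, X and Y, and for the 500 kb on either side of the pair. An interval belonged to a gene when it overlapped the gene body or the 1 kb beside it (GRCm38). Within the locus lay 45 of the 28717 intervals of the HEPA1-6 list and 67 of the 14908 intervals of the liver-labelled list.

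The hybrids were captured with S9.6, an antibody against RNA-DNA hybrids, from HEPA1-6, a mouse hepatoma cell line grown in medium with serum, and from liver of C57/Bl6 mice, whose age and sex are not given in the sources used here. Both sources are labelled wild type, untreated and hepatocyte. The 12 libraries form 6 groups of 2: immunoprecipitate, immunoprecipitate with RNase H1 (which destroys the RNA of a hybrid) and input, for each source. The files analysed are 1 list of intervals per source, named by the authors as a merged immunoprecipitate against an input, so no value has a replicate spread, no difference between the lists was tested, and the sequencing depth is unknown. Values of single libraries, those treated with RNase H1 included, are not analysed here.

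R-loops form where a nascent RNA pairs with its DNA template behind the polymerase and leaves the other DNA strand unpaired, so they tend to follow transcription. Myc encodes a transcription factor that drives growth and proliferation by binding E-box DNA together with its partner MAX. Pvt1 is a long noncoding RNA gene downstream of Myc, read in the same direction toward higher coordinates, and the region is known as a site of amplification, viral insertion and rearrangement in tumours.

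The source labels were set against marker genes. Of 12 hepatocyte markers, 3 held a HEPA1-6 interval and 2 (Alb and Apoa2) a liver-labelled one, whereas all 6 markers of proliferating cells, among them Mki67 and Top2a, held one in both lists. None of 6 endothelial and stellate cell markers held an interval in either list. Of 6 blood cell markers, 2 and 1 held one, and of 4 cholangiocyte markers 1 (Sox9) in each list. Among all 21887 protein-coding genes, 42.0% held a HEPA1-6 interval and 29.7% a liver-labelled one. The 95% Wilson intervals of the hepatocyte markers, 8.89 to 53.2% and 4.7 to 44.8%, include these shares. Those of the blood cell and cholangiocyte markers also do, and those of the proliferation markers (61.0 to 100% in both lists) do not. An interval is not an expression level, and the second list is called liver-labelled because its markers do not set it apart as liver. Chromosome 15 itself differed from the other autosomes: it held 19.9 HEPA1-6 and 21.5 liver-labelled intervals per Mb, against 11.2 and 5.15 per Mb elsewhere. The share without a strand on chromosome 15 was 7.43% (95% Wilson interval 6.38 to 8.64%) and 22.4% (20.7 to 24.2%), against 3.46% and 10.7% on the other autosomes. Each comparison of the lists at Myc and Pvt1 sits inside this difference, and the part of the chromosome in it was not tested.

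The gene pair carried nearly equal numbers of intervals in both lists, while its surroundings did not. Myc and Pvt1 together held 42 HEPA1-6 and 44 liver-labelled intervals, of which 34 and 42 overlapped an interval of the other list. Over chromosome 15, 52.6% of HEPA1-6 and 58.3% of liver-labelled intervals did so, and over the other autosomes 30.1% and 81.8%. The flanking 500 kb on both sides together held 3 HEPA1-6 and 23 liver-labelled intervals, of which 2 and 4 were shared. Per Mb these flanks held 3.01 and 23.0 intervals, so that the HEPA1-6 flanks lay below the level of chromosome 15 and the liver-labelled flanks near it. When chromosome 15 was cut into 81 stretches as long as the locus (1275 kb), the locus ranked 17th by HEPA1-6 intervals (45, median 19) and 7th by liver-labelled intervals (67, median 23). By covered bases it ranked 9th in both lists. The liver-labelled list had more intervals than HEPA1-6 in 53 of these 81 stretches.

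**Figure D1:**
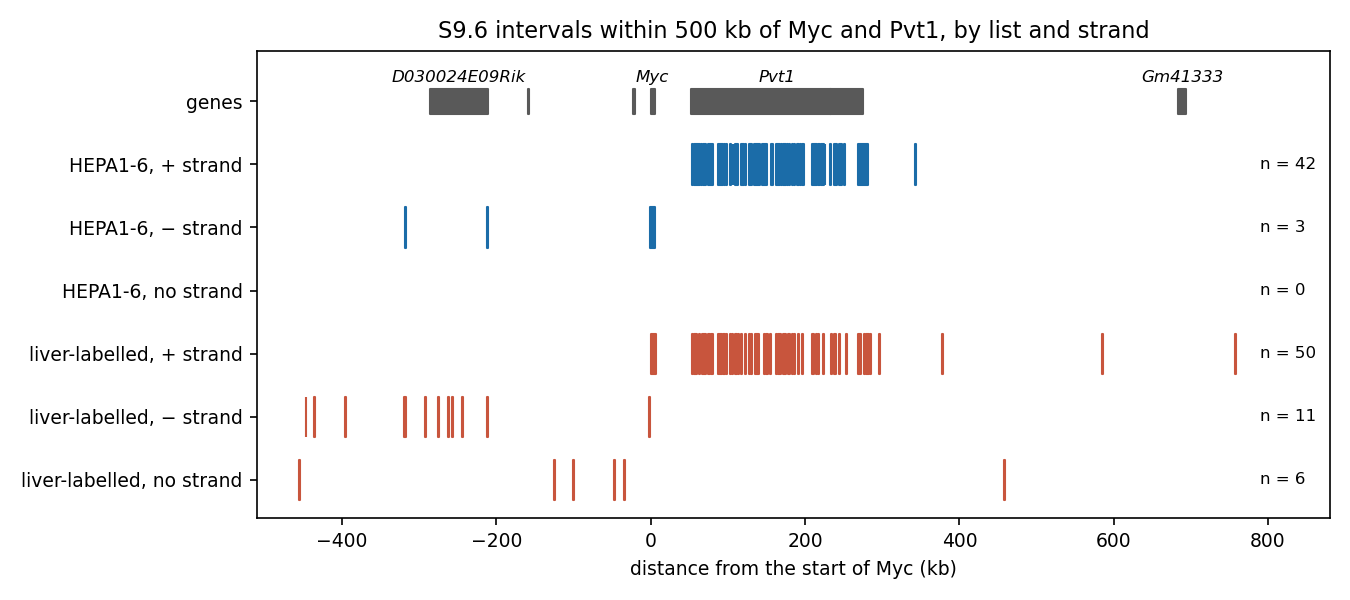
Intervals within 500 kb of Myc and Pvt1, drawn as bars by list and by the strand the authors gave them, against the distance from the start of Myc in kb; genes are grey, and very short features are widened to stay visible. Pvt1 holds 41 HEPA1-6 and 42 liver-labelled intervals, all on the + strand, while the flanks hold 3 HEPA1-6 and 23 liver-labelled intervals.

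Myc (gene 17869, protein-coding, positions 61985341 to 61990361, 5021 bp) lay almost wholly within intervals in both lists. The single HEPA1-6 interval ran from 61984173 to 61991219, which is 7047 bp, covered 98.0% of the gene with its flanks and scored 118. That score ranked 515th of the list (top 1.79%) and was the highest in the locus. The liver-labelled intervals there were 2, at 61983324 to 61984450 (1127 bp) and at 61985528 to 61992596 (7069 bp), and together they covered 84.7% of the gene with its flanks. Both scored 58 (top 6.14% of the list). The score is the authors' own, its scale is not stated, and scores are ordered only within a list, also where values of both lists stand side by side.

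Around Myc the lists differed in the strand given to the intervals. The HEPA1-6 interval, which spans the start and the whole body, carried the - strand, opposite to the direction in which Myc is read. In the liver-labelled list the short interval upstream of the gene carried the - strand, and the long one over the body carried the + strand and began 187 bp after the annotated start. How the authors assigned a strand is not given in the sources used here. Over all genes, stranded intervals that overlapped exactly 1 gene of known strand matched it in 93.4% of 17536 HEPA1-6 cases (93.0 to 93.8%) and 90.6% of 7257 liver-labelled cases (90.0 to 91.3%). Among such intervals that span a whole gene, 8 of 80 HEPA1-6 ones (10.0%) and 9 of 39 liver-labelled ones (23.1%) were on the opposite strand.

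An interval at a gene like Myc was common. Of 21887 protein-coding genes, 42.0% held a HEPA1-6 interval and 29.7% a liver-labelled one, so that its presence alone does not set Myc apart. Being covered this fully was less common. Among 4955 protein-coding genes of 0.5 to 2 times its length, 162 were covered at least as far as Myc by HEPA1-6 intervals and 109 by liver-labelled ones, Myc included. The median cover of those with an interval was 46.6% and 27.9%. The genes nearest to Myc in cover over the 2 lists were Bsg, which encodes the membrane protein basigin (98.6% and 85.3%), the proteasome subunit gene Psmd8 (100% and 84.7%) and Hmga1, a gene for a chromatin architectural protein (100% and 84.1%). Each of these also held 1 HEPA1-6 and 2 liver-labelled intervals.

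Between the genes, both lists were empty. From the last Myc interval to the first Pvt1 interval there were 47.7 kb without a HEPA1-6 interval and 46.3 kb without a liver-labelled one, where the distance between the annotated genes is 47.6 kb. The first Pvt1 interval started 935 bp (HEPA1-6) and 930 bp (liver-labelled) after the annotated start of Pvt1. The start of Pvt1 was thus not covered in either list, unlike the body that follows.

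Pvt1 (gene 19296, lncRNA, positions 62037986 to 62260215, 222230 bp) held 41 HEPA1-6 and 42 liver-labelled intervals, and every one of these carried the + strand. This was the largest number of any of the 12727 lncRNA genes in either list, of which 13.6% held a HEPA1-6 interval and 8.97% a liver-labelled one. Among all genes Pvt1 ranked 7th by HEPA1-6 intervals and 2nd by liver-labelled ones. The intervals were wider in HEPA1-6, with a median of 1990 bp (224 to 13504 bp), than in the liver-labelled list, with 1304 bp (254 to 5630 bp). The medians of the whole lists were 1091 and 881 bp. Pvt1 with its flanks was covered to 49.7% and 32.7%. The median scores, 24 (11 to 60) for HEPA1-6 and 22 (12 to 53) for liver-labelled intervals, lay near the medians of the whole lists, 21 and 22. Pvt1 therefore stood out by the number of intervals, not by their scores. This number is not scaled to gene length, and Pvt1 is long. Gm20716 and 4930557K07Rik, shorter lncRNA genes named after their values were seen, had more HEPA1-6 cover (59.7% and 57.1%). Their liver-labelled cover was lower than that of Pvt1 (18.7% and 19.4%).

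Along Pvt1, more of the sequence lay in intervals, and median scores were higher, on the side of its start, while the numbers of intervals went opposite ways. Before and after the midpoint there were 19 and 22 HEPA1-6 intervals, and 25 and 17 liver-labelled ones. Before the midpoint of the gene, 57.6% of the bases lay in HEPA1-6 intervals, and after it 41.9%. The corresponding shares in the liver-labelled list were 39.3% and 26.6%. Median scores before and after the midpoint were 27 and 22 for HEPA1-6, and 26 and 18 for liver-labelled intervals. The highest-scoring HEPA1-6 interval of the gene (62059140 to 62066687, score 60) began 21.2 kb after its start. The highest-scoring liver-labelled one (62063248 to 62066687, score 53) began 25.3 kb after it and ended at the same base. Past the midpoint the highest HEPA1-6 score was 41, at 62156153 to 62160036. A liver-labelled interval with the same end scored 38, the highest of its list past the midpoint.

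**Figure D2:**
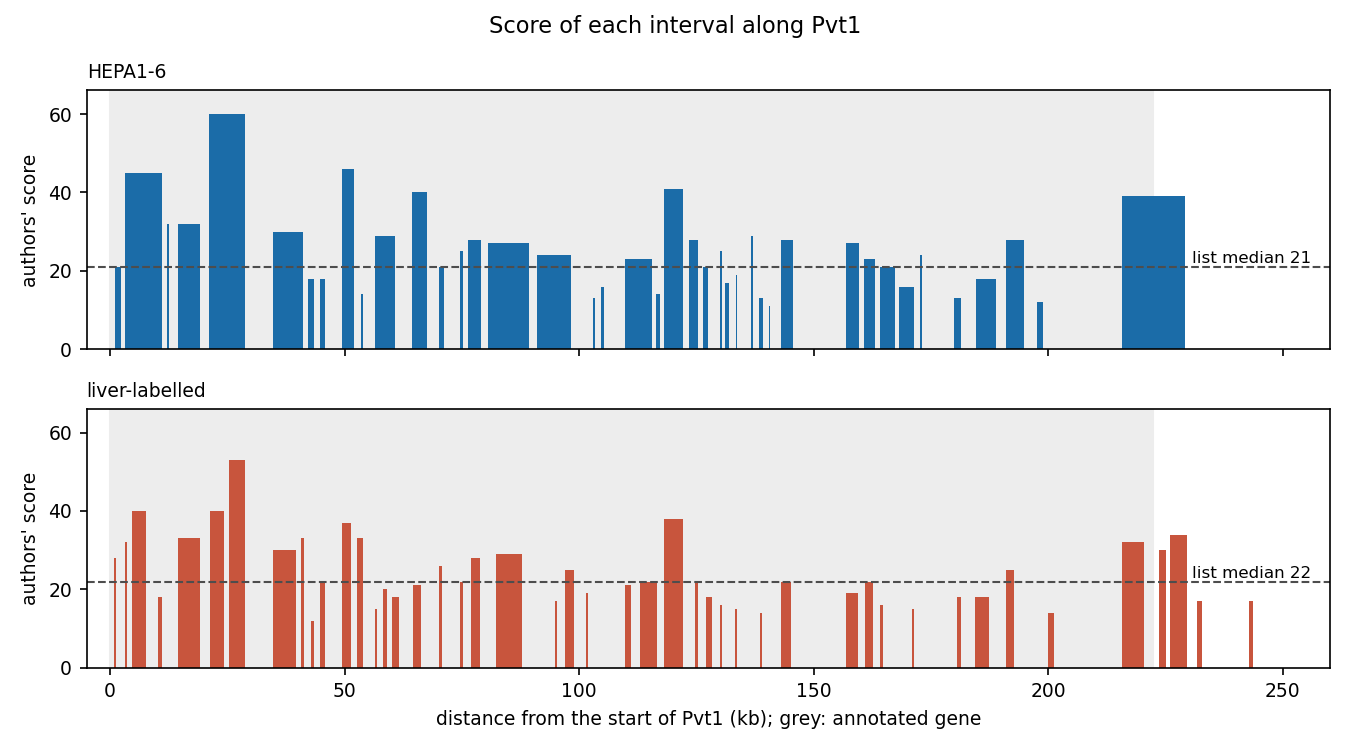
Authors' score of each interval (height, linear axis) against the distance from the start of Pvt1 in kb, with the width of each bar showing the extent of the interval; the grey band is the annotated gene and the dashed line the median score of the list. Before the midpoint of the gene the scores reach 60 (HEPA1-6) and 53 (liver-labelled), and after it 41 and 38. The intervals at the end of the gene score 39 and 32. The list medians are 21 and 22.

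With Pvt1 cut into 10 equal parts of 22.2 kb, cover was highest in the first part for HEPA1-6 (68.8%) and in the second for liver-labelled intervals (52.5%). It was lowest in the seventh for both, at 19.5% and 12.7%. The sixth, which holds the highest-scoring intervals past the midpoint, was covered to 59.4% and 45.0%. The longest stretch of Pvt1 without an interval ended at 62253662 in both lists and measured 16778 bp for HEPA1-6 and 14565 bp for liver-labelled intervals.

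**Figure D3:**
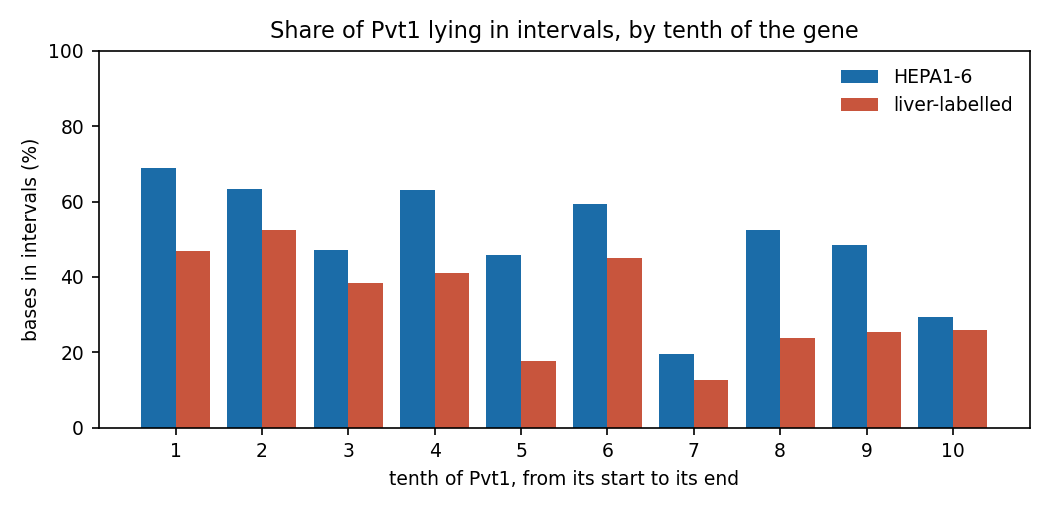
Share of bases in intervals (%) for each of 10 equal parts of Pvt1 from start to end, as bars by list; there is 1 list per source and hence no error bar. HEPA1-6 bars exceed liver-labelled bars in all 10 parts, and both are lowest in the seventh, at 19.5% and 12.7%.

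The lists marked largely the same places in Pvt1. Of the HEPA1-6 intervals there, 33 of 41 (80.5%, 66 to 89.8%) overlapped a liver-labelled interval, and 40 of 42 liver-labelled intervals (95.2%, 84.2 to 98.7%) overlapped a HEPA1-6 one. These Wilson intervals cover counting error only, and neighbouring intervals are not independent. Over the whole of chromosome 15 the shares were 52.6% and 58.3%, and over the other autosomes 30.1% and 81.8%. The liver-labelled share at Pvt1 is thus nearer to that of the other autosomes, while the HEPA1-6 share lies above both. With 49.7% and 32.7% of Pvt1 and its flanks covered, some overlaps of 1 bp can occur by placement alone. The median widths at Pvt1 also exceed those of the whole lists, and the number of such overlaps was not tested. Of the bases in HEPA1-6 intervals of Pvt1, 70996 bp (60.4%) lay in the other list, and of those in liver-labelled intervals 66328 bp (90.6%). Of the HEPA1-6 intervals, 7 overlapped 2 or 3 liver-labelled ones, while 1 liver-labelled interval overlapped 2 HEPA1-6 intervals. Of 41 overlapping pairs assigned to Pvt1 in both lists, 19 (46.3%) had a start or an end at the same base in both lists, close to the 46.1% of all 11455 overlapping pairs of the series. Across these pairs the scores of both lists were correlated (Spearman's rho 0.573), a description over intervals of 1 gene that share their library and may share a HEPA1-6 partner.

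The equal count is unusual away from chromosome 15. Pvt1 held 1.02 liver-labelled intervals for each HEPA1-6 one. Of the genes with 10 or more HEPA1-6 intervals, 11 of 46 on chromosome 15 (23.9%) held at least as many liver-labelled ones, Pvt1 among them, against 9 of 365 on other chromosomes (2.47%). The median ratio was 0.727 on chromosome 15 and 0.25 elsewhere. Of the 10 genes with the most liver-labelled intervals, 9 lie on chromosome 15.

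Set beside the 2082 genes of 0.5 to 2 times its length, Pvt1 ranked 4th by covered share in each list. Their median cover was 0% in both lists, as most held no interval, and 94 of these genes lie on chromosome 15, where the medians were 0.323% and 0.769%. In HEPA1-6 the genes covered more than Pvt1 included Myo10, an unconventional myosin gene on chromosome 15 (68.0%), and Zmynd8, a chromatin reader gene on chromosome 2 (50.7%). In the liver-labelled list they were Ano6, a gene for a membrane scramblase (68.3%), Arid2, a gene of a chromatin remodelling complex (56.3%), and Myo10 (50%), all on chromosome 15. These genes were chosen after their values were seen. No lncRNA of similar length came close: of 225 compared, the nearest in cover were Gm51644 (20.9% and 4.99%), Lncpint (15.9% and 5.71%) and Airn, the noncoding RNA of an imprinted cluster (16.9% and 3.11%). A shorter one, Kcnq1ot1, likewise of an imprinted cluster and named after its values were seen, was covered to 59.9% and 31.8% by 11 and 13 intervals.

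**Figure D4:**
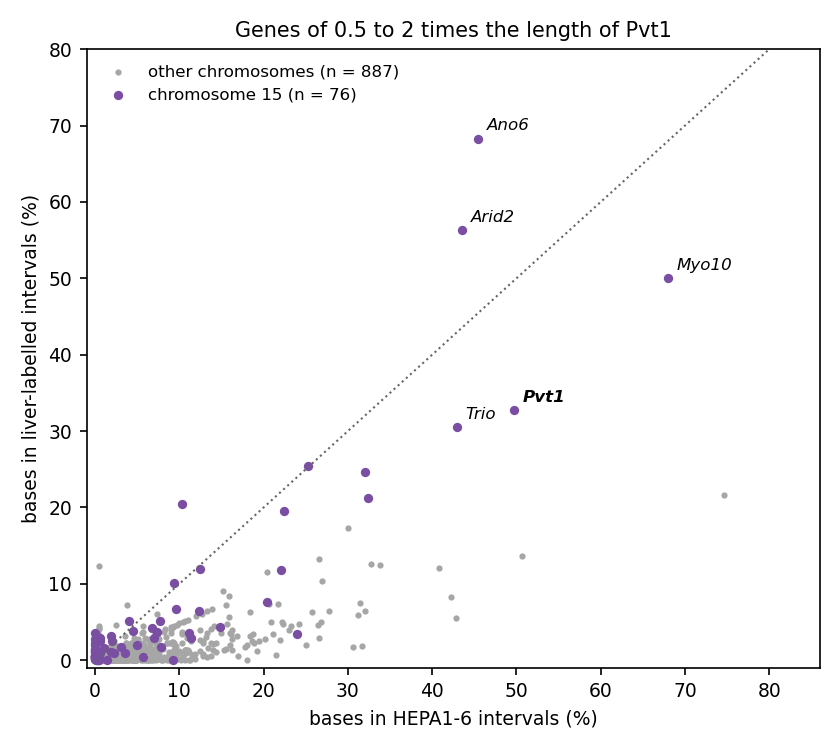
Share of bases in HEPA1-6 intervals (x axis, %) and in liver-labelled intervals (y axis, %) for genes of 0.5 to 2 times the length of Pvt1 with an interval in either list, 76 on chromosome 15 (violet) and 887 elsewhere (grey); the dotted line marks equal cover. Pvt1, at 49.7% and 32.7%, lies among chromosome 15 genes, well above the other chromosomes on the y axis.

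Past the annotated end of Pvt1 the + strand intervals went on. The last HEPA1-6 interval of the gene, from 62253663 to 62267166 (13504 bp, score 39), reached 6951 bp beyond it. The liver-labelled list had an interval from 62253663 to 62258361, followed past the gene by others at 62261544 to 62263030 (score 30) and 62263986 to 62267633 (score 34), over the same stretch. Farther downstream the lists parted. In HEPA1-6 there was 1 more interval, 67.2 kb past the end (62327413 to 62328544, score 23), with no liver-labelled partner. In the liver-labelled list 6 more followed, 5 on the + strand and 1 without a strand, up to 483 kb past the end, with scores of 13 to 20. The lncRNA gene Gm41333 in this stretch held no interval in either list. Macroh2a3, a transcribed pseudogene of a histone variant gene inside Pvt1, was overlapped by 1 + strand interval in each list (scores 13 and 18), which cannot be told apart from those of Pvt1.

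Upstream of Myc the intervals lay on the other strand or had none. The lncRNA gene D030024E09Rik (gene 432956, positions 61699284 to 61774451) is read on the - strand, away from Myc. It held 1 HEPA1-6 interval (score 12) and 5 liver-labelled intervals (scores 22 to 43, median 26), all on the - strand. The same 651 bp, from 61773263 to 61773913, were marked in both lists and ended 538 bp inside the start of the gene. The promoter window itself, chr15:61774402-61774701 on the - strand, overlapped no interval in either list. It is shown because the - strand intervals upstream of Myc, apart from those at Myc itself, lie downstream of this start (RefSeq, GRCm38.p6, 5′ to 3′). The last 50 bases, in capitals, are the first transcribed ones.

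D030024E09Rik: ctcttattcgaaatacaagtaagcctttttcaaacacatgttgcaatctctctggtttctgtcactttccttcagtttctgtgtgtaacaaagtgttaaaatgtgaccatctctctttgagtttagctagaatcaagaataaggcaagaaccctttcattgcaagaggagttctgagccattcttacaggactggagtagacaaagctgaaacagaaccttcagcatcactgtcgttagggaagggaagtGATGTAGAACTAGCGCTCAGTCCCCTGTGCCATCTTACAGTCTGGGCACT

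Its GC content is 42.3%, against a median of 52.7% over 32851 promoter windows. Beyond the 3′ end of D030024E09Rik, 1 HEPA1-6 and 5 liver-labelled - strand intervals followed, the farthest liver-labelled one 161 kb past the end. The HEPA1-6 one (61666886 to 61667132, 247 bp, score 47) lay within a liver-labelled interval of 2399 bp (61665963 to 61668361, score 35).

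All 6 intervals without a strand in the locus were liver-labelled. They made up 8.96% of the liver-labelled intervals there (4.17 to 18.2%), against 22.4% on the whole of chromosome 15, and 0 of 45 in HEPA1-6 (0 to 7.87%). None of them overlapped a gene or a HEPA1-6 interval, and their scores ran from 13 to 32. Of these, 4 lay between the start of D030024E09Rik and Myc, where HEPA1-6 had no interval before the one at Myc itself. The nearest to Myc ran from 61951219 to 61951873 (score 29). In a list from bulk material, few cells with a hybrid and a weak hybrid in many cells cannot be told apart.

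The genes that work with MYC were counted next. Of 30 network genes (partners, antagonists, cofactors and regulators of MYC), 24 (80%, 62.7 to 90.5%) held a HEPA1-6 interval and 20 (66.7%, 48.8 to 80.8%) a liver-labelled one, against 42.0% and 29.7% of all protein-coding genes. Both lists had intervals at 19 genes, HEPA1-6 alone at 5, and Mxi1, a gene for a MAX-binding antagonist, had a liver-labelled interval only (score 28). The other members of the MYC family, Mycn and Mycl, held none in either list. Max, the obligate partner, held 2 HEPA1-6 intervals (top score 34) and no liver-labelled one. The same pattern was seen at Mga and Mlx, which encode further members of the MAX and MLX network. Among the antagonists, Mxd1, Mxd3 and Mnt held intervals in both lists, and Mxd4 in neither.

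The highest network scores in HEPA1-6 were at Hnrnpk, which encodes an RNA- and DNA-binding protein (375), Cnbp (124), Tcf7l2, the Wnt pathway factor (103), Fubp1 (81), and Ctcf and Kat5 (69 each). In the liver-labelled list they were at Hnrnpk (186), Cnbp (120), Ruvbl2, a chromatin remodelling ATPase gene (91), Tcf7l2 (88) and Mxd3 (50). More intervals in the liver-labelled list than in HEPA1-6 were found at 5 network genes, and fewer at 17. The widest such excess was at Skp2, a ubiquitin ligase gene that also lies on chromosome 15, with 5 HEPA1-6 and 8 liver-labelled intervals (named after its values were seen).

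Of 30 genes widely described as MYC targets, 28 (93.3%, 78.7 to 98.2%) held a HEPA1-6 interval and 26 (86.7%, 70.3 to 94.7%) a liver-labelled one, all 26 of them in both lists. The exceptions were Cad and Rrp9, with an interval in HEPA1-6 only, and Tert and Ccnd2, with none. Median top scores among genes with an interval were 76 and 45.5, against 34 and 28 over all protein-coding genes with one. In HEPA1-6 the top scores were at Ncl, the gene of the nucleolar protein nucleolin (254), Mybbp1a (195), Nop56, a snoRNP protein gene (181), Hspd1, a mitochondrial chaperone gene (176), and Cdk4, the cell cycle kinase gene (165). In the liver-labelled list they were at Ncl (146), Mybbp1a (100), Odc1, the polyamine synthesis enzyme gene (89), Cdk4 (89) and Hspd1 (81). Such genes are highly transcribed in many growing cells, and the lists were chosen with earlier results of these data known.

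**Figure D5:**
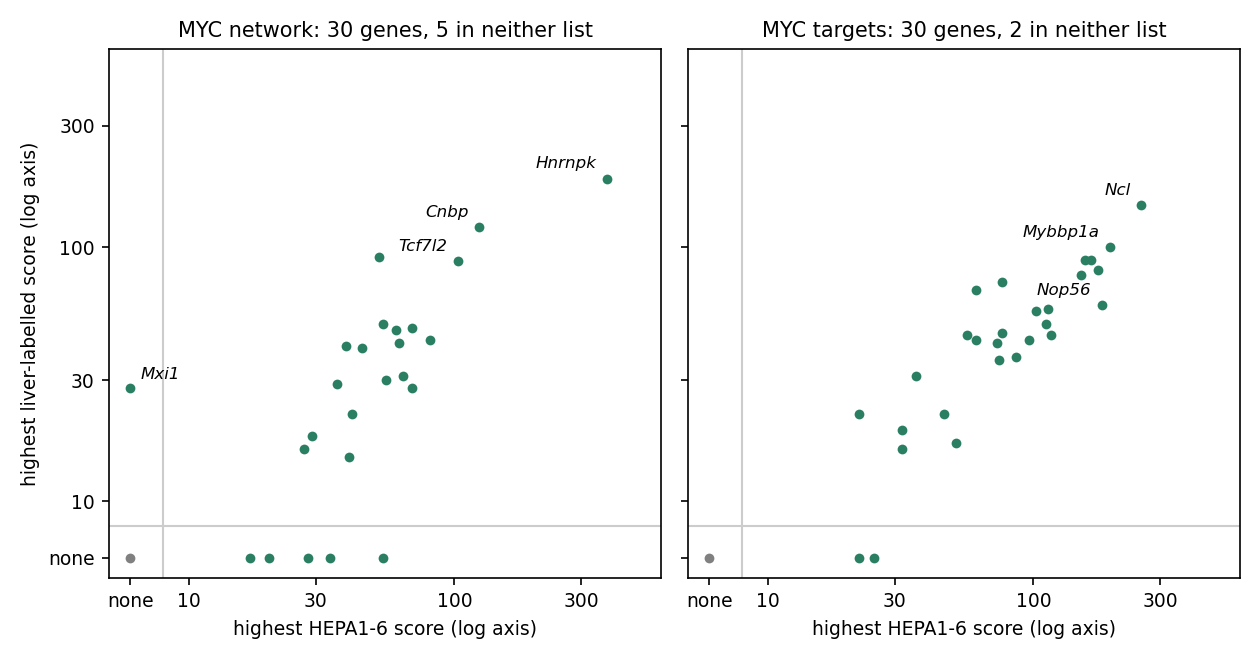
Highest score of an interval at each MYC network gene (left) and MYC target gene (right) for HEPA1-6 (x axis) and liver-labelled intervals (y axis), both on log axes with a separate place for genes without an interval; the 3 genes with the highest HEPA1-6 score are named in each plot, with Mxi1, and genes without an interval in either list share 1 point. Of 30 genes each, 5 network genes and 2 target genes have no interval in either list, and Hnrnpk (375 and 186) and Ncl (254 and 146) lead the plots.

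The E-box CACGTG, which MYC and MAX bind and which reads the same on both strands, was searched in the promoter windows of these lists (250 bases before to 50 after a start, 70 windows of 53 genes). Of 35 windows under an interval in both lists, 9 (25.7%) held it, and so did 6 of the other 35. Of all 32851 windows, 7.15% held it and 0.0883% (29 windows) held 3 or more. The windows of these lists were not matched to all windows for GC content, and some of them overlap. The target genes were listed because they are described as MYC targets, so no enrichment is read from these shares. The windows under intervals of both lists with 3 or more are shown, with each E-box in capitals (RefSeq, GRCm38.p6, + strand, 5′ to 3′). The Cdk4 window, chr10:127063285-127063584, held 4, beginning at positions -172, -118, -98 and -11 from the start, and lay under a HEPA1-6 interval scoring 165 and a liver-labelled one scoring 89. The Apex1 window (Apex1 encodes a base excision repair enzyme), chr14:50924699-50924998, held 3, at -24, 1 and 22, under intervals scoring 22 in each list.

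Cdk4: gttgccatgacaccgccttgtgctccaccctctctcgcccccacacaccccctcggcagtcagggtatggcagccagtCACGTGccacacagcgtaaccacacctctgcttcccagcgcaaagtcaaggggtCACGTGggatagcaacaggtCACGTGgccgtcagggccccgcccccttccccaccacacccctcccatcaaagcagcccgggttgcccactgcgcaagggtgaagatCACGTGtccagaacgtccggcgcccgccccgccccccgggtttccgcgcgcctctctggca

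Apex1: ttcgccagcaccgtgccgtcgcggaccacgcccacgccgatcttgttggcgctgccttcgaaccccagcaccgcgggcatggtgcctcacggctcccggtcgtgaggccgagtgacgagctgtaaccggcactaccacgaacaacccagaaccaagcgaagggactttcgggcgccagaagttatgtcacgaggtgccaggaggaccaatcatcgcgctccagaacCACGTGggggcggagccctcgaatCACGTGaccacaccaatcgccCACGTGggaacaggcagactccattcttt

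These matches describe the letters of the windows; binding of MYC was not measured in these data.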

How the data were processed

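S9.6 immunoprecipitation libraries of HEPA1-6 cells and mouse liver were analysed from 1 deposited list of intervals per source, with position, name, score and strand. Per the submitters' processing notes, CASAVA 1.8.2, cutadapt, Bowtie2, bedtools, SAMtools and MACS2 were used and the build was mm10, which is GRCm38; thresholds, roles and strand assignment are not given in the sources used here. Each interval has a deposited score in whole numbers, on a scale that the authors' files do not state.

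Genes came from RefSeq GRCm38.p6 tables, which hold gene bounds without exons, so positions were not divided into exon, intron and UTR. Gene strands came from the promoter table where it gave 1 strand. Intervals were counted per gene with a 1 kb flank and in the 500 kb around the pair, and overlaps of 1 bp counted as shared (Python 3.11.15, pandas 2.3.3, numpy 2.4.6). Shares have 95% Wilson intervals (statsmodels 0.14.6). Counting functions were tested on simulated data. The members and gene lists were chosen with earlier results of these data known.

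The text names Myc, Pvt1, genes of the locus that are protein-coding or overlap an interval, Mycn, Mycl, the 5 highest-scoring genes per list and source, and the 3 genes nearest in cover; other names followed their values. Alternatives varied flanks, window, score threshold, overlap and list length.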

Additional observations from a re-analysis of the deposited data

How the results depend on the processing

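Of 48 alternatives for 14 results, 33 gave a count within 1.5 times the reported one, or a share or density inside its 95% interval, and 15 moved. No alternative moved the counts of MYC network or target genes. At Myc, the liver-labelled count was 1 without a flank and 1 by midpoint, since the upstream interval lies outside the body. With the higher-scoring 50% of each list, Pvt1 held 23 and 17 intervals, the locus 20.4 and 22.7 per Mb, and 50% of the HEPA1-6 intervals in the locus were shared; this setting removes intervals by construction. Density rose to 56.8 and 72.3 per Mb with 250 kb on either side and fell to 20.7 and 37.4 with 1 Mb, as Pvt1 takes a larger or smaller part of the window. With 1 Mb the liver-labelled share without a strand was 20%. Requiring 50% of both intervals lowered the shared part of the locus to 40.0% (HEPA1-6) and 26.9% (liver-labelled), and equal list lengths lowered the liver-labelled share to 55.2%.

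No paired analysis was possible because each source has 1 merged list; leaving out a replicate was not run for the same reason. Depth is unknown, so an interval missing from a list can lie below its threshold.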
